A study of Mus musculus with 6 samples.

Results

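Liver expression of 4 hemoglobin genes (Hba-a1, Hba-a2, Hbb-bs and Hbb-bt) and of 5 genes for heme synthesis enzymes (Alas1, Alas2, Alad, Urod and Fech) was examined after acute ethanol exposure in mice. The 9 genes were taken by symbol from a table of 28880 genes, and all 9 were among the 16717 genes that passed the filter on low counts. Because they were picked with their differences between these libraries already known, their levels and fold changes are given as a description and without a test. The libraries came from liver RNA of male wild-type C57BL/6J mice aged 6 to 8 weeks, 3 in the acute ethanol group and 3 in the control group, all labelled batch 1. Ethanol-exposed mice were fasted for 12 h, received 50% ethanol once by mouth at 6 g/kg, and gave their livers 24 h later. Control mice were kept without ethanol, and the labels do not say whether they were fasted or received a vehicle, so ethanol cannot be told apart from fasting or dosing in this design. The study's methods describe a rinse of the excised livers in buffered saline before weighing and describe no perfusion, and the amount of blood left in them was not measured here. In bulk liver RNA, more cells of a type and more RNA per cell cannot be told apart.

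Hemoglobin is built from alpha and beta globin chains, each holding a heme group that binds oxygen, and it is the main protein of red blood cells. Mice carry a pair of adult alpha globin genes on one chromosome and a pair of adult beta globin genes on another. Heme is made in steps shared between mitochondria and cytosol. The first step, the joining of glycine and succinyl-CoA by 5-aminolevulinate synthase, is rate-limiting in liver and is encoded by Alas1 in all tissues and by Alas2 in developing red cells. Alad joins the products of this step in pairs, Uros closes the ring, Urod, Cpox and Ppox modify it, and Fech inserts iron. Liver uses much of its heme for cytochrome P450 enzymes, and heme represses hepatic Alas1.

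The libraries held 60514417 to 74210869 counts on genes. TMM scaling, which assumes that most genes do not differ, gave factors between 0.768 and 0.836 for ethanol libraries and between 1.26 and 1.27 for control libraries. Over all genes the log2 fold change had a median of -0.04 with these factors and -0.71 without them (library size alone). Fold changes are therefore given on both scales where they differ in sign. By edgeR (quasi-likelihood fit, p adjusted by Benjamini and Hochberg), 1738 genes were called higher (10.4% of genes tested) and 2301 lower (13.8%) after ethanol. A call needed a log2 fold change past 1 in size, together with an adjusted p below 0.05. Hepatocyte markers were abundant in every library, with a summed FPKM of 47832 to 52356 over 9 markers in ethanol-exposed and 45458 to 52134 in control mice. Within the ethanol group, replicate 3 differed most from the others (chi-square per degree of freedom 426 against replicate 1 and 545 against replicate 2, and 157 between replicates 1 and 2). Without it the log2 fold changes of the 4 hemoglobin genes were 2.32 to 2.52, beside 2.26 to 2.41 with all libraries.

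In the deposited table's own coordinates, whose build could not be matched to the annotation at hand, Hba-a1 (ENSMUSG00000069919) lies on the plus strand of chromosome 11 from 32233511 to 32234465. Hba-a2 (ENSMUSG00000069917) follows on the same strand from 32246489 to 32247298, 12023 bases away. Hbb-bt (ENSMUSG00000073940) lies on the minus strand of chromosome 7 from 103461731 to 103463203, and Hbb-bs (ENSMUSG00000052305) from 103475741 to 103477135, with 12537 bases between them. The heme synthesis genes are scattered over the genome, with Alas1 (ENSMUSG00000032786) on chromosome 9, Alas2 (ENSMUSG00000025270) on chromosome X, and Alad (ENSMUSG00000028393) and Urod (ENSMUSG00000028684) on chromosome 4. Each globin gene has 3 exons in its longest coding transcript, and the 5 enzyme genes have 10 to 12. The 2 alpha globin coding sequences were identical at 425 of 426 bases, and the 2 beta globin coding sequences at 440 of 441. Of the 150-base stretches of Hba-a1 and Hba-a2 transcripts, 48.4% and 65.7% occurred in the other copy, and for Hbb-bs and Hbb-bt the shares were 58.7% and 50.7%. Reads could therefore have been split between copies, and values within a pair are uncertain. Alas1 and Alas2 shared no 150-base stretch, with 63.0% identity over the coding sequence.

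The 250 bases before the annotated start of these genes (RefSeq, build GRCm38.p6, not the deposited table's coordinates) are shown because the 4 hemoglobin genes moved together and Alas1 and Alas2 did not. Sequence was matched for 8 of the 9 genes, and 5 are printed, 5′ to 3′ on the gene's strand. Capitals mark GATA motifs (GATAA or GATAG after A or T), CCAAT and CACCC on either strand, and ATATAA on the gene's strand, the last chosen after the sequences were seen. Motifs that overlap or touch run together.
Hba-a1, chr11:32283422-32283671, plus strand: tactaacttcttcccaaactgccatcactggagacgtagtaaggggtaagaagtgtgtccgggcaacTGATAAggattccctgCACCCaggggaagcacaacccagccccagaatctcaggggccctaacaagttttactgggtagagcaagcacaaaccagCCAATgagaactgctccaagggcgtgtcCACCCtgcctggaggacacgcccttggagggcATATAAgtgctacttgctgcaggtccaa
Hbb-bs, chr7:103827929-103828178, minus strand: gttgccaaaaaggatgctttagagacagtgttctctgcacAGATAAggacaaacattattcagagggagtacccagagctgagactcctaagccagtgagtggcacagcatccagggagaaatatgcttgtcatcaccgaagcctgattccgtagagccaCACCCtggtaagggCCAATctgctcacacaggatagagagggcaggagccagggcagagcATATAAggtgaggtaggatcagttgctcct
Hbb-bt, chr7:103813924-103814173, minus strand: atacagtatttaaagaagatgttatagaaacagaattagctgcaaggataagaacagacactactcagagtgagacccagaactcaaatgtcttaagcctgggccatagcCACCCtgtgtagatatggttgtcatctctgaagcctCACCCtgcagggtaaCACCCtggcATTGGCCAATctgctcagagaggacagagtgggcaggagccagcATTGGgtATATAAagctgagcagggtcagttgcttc
Alas2, chrX:150547167-150547416, plus strand: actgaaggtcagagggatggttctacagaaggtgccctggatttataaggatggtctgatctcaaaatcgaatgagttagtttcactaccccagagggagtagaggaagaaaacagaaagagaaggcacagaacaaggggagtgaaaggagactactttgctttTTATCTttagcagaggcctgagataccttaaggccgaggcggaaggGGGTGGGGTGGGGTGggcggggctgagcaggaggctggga
Alas1, chr9:106247955-106248204, minus strand: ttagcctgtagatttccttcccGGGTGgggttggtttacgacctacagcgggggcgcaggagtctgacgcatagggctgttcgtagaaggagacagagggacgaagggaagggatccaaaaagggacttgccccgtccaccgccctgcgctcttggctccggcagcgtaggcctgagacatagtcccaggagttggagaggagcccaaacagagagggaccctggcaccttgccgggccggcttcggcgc

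Over their shared 247 bases the Hba-a1 and Hba-a2 windows were identical, whereas those of Hbb-bs and Hbb-bt matched at 127 of 249 aligned positions. ATATAA stood 28 to 31 bases before the start in all 4 hemoglobin genes and in none of the windows of Alas1, Alas2, Alad and Urod, and 5.58% of 32536 promoter windows of this length hold it. CCAAT (33.8% of all windows) and CACCC (52.1%) were also found in all 4. A GATA motif (26.5%) lay 183 bases before the start in Hba-a1, 186 in Hba-a2 and 210 in Hbb-bs, with no match to these letters in the Hbb-bt window. In the Alas2 window a GATA motif lay 86 bases upstream on the opposite strand, and 3 adjacent CACCC motifs lay 30 to 40 bases upstream on the opposite strand. A second annotated start of Alas1 had 2 matches, 224 and 195 bases upstream, to the consensus motif of the factor NRF1, which 3.77% of windows hold on either strand. These matches describe letters and not bound sites.

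All 4 hemoglobin genes had higher levels in the livers of ethanol-exposed mice than in control livers, by similar ratios. Hba-a1, an adult alpha chain, was at 206, 143 and 151 FPKM (a fragment count divided by the transcript's length and the library's depth) in ethanol replicates 1 to 3 and at 48.5, 60.1 and 58.1 FPKM in control replicates 1 to 3. Hba-a2, the second alpha chain gene, was at 169, 121 and 118 FPKM against 40.7, 46.5 and 48.7 FPKM. The lowest ethanol library lay above the highest control library for both genes, and ethanol replicate 1 was the highest of the 6.

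Hbb-bs, the more abundant adult beta chain gene, was at 239, 179 and 162 FPKM in ethanol replicates 1 to 3 and at 48.7, 70.5 and 55.4 FPKM in control replicates. Hbb-bt, the other beta chain gene, was at 112, 80.3 and 70.2 FPKM against 24.7, 30.1 and 24.8 FPKM. The groups did not overlap for either beta gene, ethanol replicate 1 was again highest, and control replicate 2 was the highest control library for both. Mean FPKM in ethanol-exposed mice followed the order Hbb-bs (194 ± 40.4, SD, n = 3), Hba-a1 (167 ± 34.1), Hba-a2 (136 ± 28.7) and Hbb-bt (87.4 ± 21.7). In control mice the order was the same, at 58.2 ± 11.2, 55.6 ± 6.19, 45.3 ± 4.17 and 26.5 ± 3.09 FPKM (SD, n = 3). In both groups the ranges of neighbours in this order overlapped, except between Hba-a2 and Hbb-bt. Within single libraries the order held in all but control replicate 3, where Hba-a1 (58.1 FPKM) lay above Hbb-bs (55.4 FPKM).

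**Figure D1:**
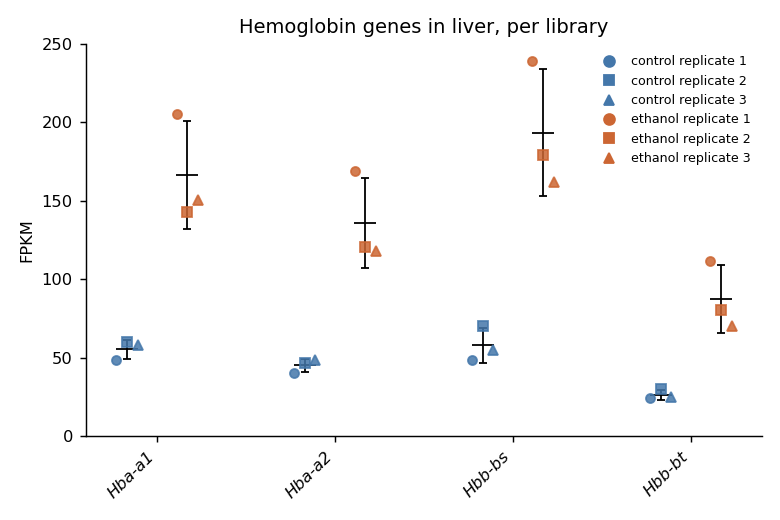
FPKM of Hba-a1, Hba-a2, Hbb-bs and Hbb-bt (vertical axis) in each library, with control mice in blue and acute ethanol-exposed mice in orange; horizontal bars are group means and vertical bars the SD of 3 libraries. For Hba-a1 the ethanol libraries lie between 143 and 206 FPKM and the control libraries between 48.5 and 60.1 FPKM, and the groups are apart for all 4 genes.

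The ratio of group mean FPKM, ethanol over control, was 3.0 for Hba-a1, 3.0 for Hba-a2, 3.33 for Hbb-bs and 3.29 for Hbb-bt. On TMM-scaled counts the log2 fold changes were 2.26 (standard error 0.19), 2.26 (0.18), 2.41 (0.21) and 2.39 (0.20) in the same order, with a median of 2.33 beside -0.04 over all genes tested. With library size alone the 4 values were 1.59, 1.59, 1.74 and 1.72, beside -0.71 over all genes. Over 14 alternative settings none of the 4 changed sign, the lowest value being 1.55 and the highest 2.57. Summing the counts of each near-identical pair, a choice made after seeing the data, gave 2.26 for alpha and 2.40 for beta globin. Because the genes were picked on this contrast, nothing is read from the fact that 4 of 4 met the call thresholds (background 10.4% higher) or that 4 of 4 had non-overlapping FPKM in the higher direction (background 9.45%).

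Summed over the 4 genes, hemoglobin took 0.0582% of all counts in ethanol replicate 1 (exact 95% binomial interval 0.0576 to 0.0587%), 0.0419% in replicate 2 (0.0414 to 0.0423%) and 0.0402% in replicate 3 (0.0397 to 0.0407%). In control replicates the shares were 0.0130% (0.0127 to 0.0132%), 0.0166% (0.0163 to 0.0169%) and 0.0149% (0.0146 to 0.0152%). These intervals cover counting error only, and they are narrow beside the spread between mice. The group means were 0.0467 ± 0.00993% and 0.0148 ± 0.00181% (SD, n = 3), a ratio of 3.15. By mean FPKM, Hbb-bs ranked 236 among all genes in ethanol-exposed mice and 674 in control mice, and Hbb-bt ranked 450 and 1301. Hemoglobin was a small share of liver counts in both groups.

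The proportions within hemoglobin varied less than its level. The alpha-to-beta ratio of summed FPKM was 1.07, 1.02 and 1.16 in ethanol replicates 1 to 3 and 1.21, 1.06 and 1.33 in control replicates, and the groups overlapped. The ratio of Hba-a1 to Hba-a2 was 1.23 ± 0.0458 against 1.23 ± 0.0573 (SD, n = 3). The ratio of Hbb-bs to Hbb-bt was 2.23 ± 0.0867 against 2.18 ± 0.188 (SD, n = 3). Both ratios depend on how reads shared by the copies were assigned.

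Among the heme synthesis enzymes, Alas1 alone was higher in ethanol-exposed mice on both scales, while the direction for Alas2, Urod and Fech depended on the scaling and Alad was higher on neither scale. Alas1, which encodes the rate-limiting first enzyme in liver, was at 119, 108 and 101 FPKM in ethanol replicates 1 to 3 and at 21.03, 28.3 and 22.7 FPKM in control replicates. The groups were far apart, and no ethanol library came near the highest control library. The group means were 109.6 ± 8.89 and 24.0 ± 3.78 FPKM (SD, n = 3), a ratio of 4.57. The log2 fold change was 2.86 (standard error 0.16) on TMM-scaled counts and 2.19 with library size alone, and it was 2.15 to 3.0 over the 14 alternatives. The TMM value stood at percentile 97.6 of all genes tested, and those of the hemoglobin genes at percentiles 95.9 to 96.4.

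Alas2, the isoform of developing red cells, was at 34.9, 25.3 and 30.2 FPKM in ethanol replicates and at 38.0, 43.1 and 40.6 FPKM in control replicates. In FPKM all ethanol libraries were lower than all control libraries, yet its log2 fold change was 0.25 (standard error 0.16) with TMM and -0.43 with library size alone. The Alas2 gene overlaps Apex2 on the opposite strand in the table's coordinates, with 195 to 397 Apex2 counts in ethanol and 561 to 612 in control libraries against 4760 to 7250 Alas2 counts. Alad, which makes porphobilinogen, was at 41.3, 37.3 and 27.3 FPKM against 56.6, 55.6 and 61.5 FPKM, again without overlap and with ethanol replicate 3 lowest. Its log2 fold change was -0.04 (0.15) with TMM, beside a median of -0.04 over all genes, and -0.71 with library size alone. It was 0.10 without ethanol replicate 3.

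Urod, which decarboxylates uroporphyrinogen, was at 22.7, 21.3 and 19.1 FPKM in ethanol replicates and at 24.1, 24.9 and 25.0 FPKM in control replicates. The groups did not overlap in FPKM, although the means differed little, at 21.04 ± 1.80 and 24.6 ± 0.511 FPKM (SD, n = 3). Its log2 fold change was 0.44 (standard error 0.10) with TMM and -0.22 with library size alone. Fech (ENSMUSG00000024588, chromosome 18), the ferrochelatase that closes the pathway, was at 8.43, 9.93 and 6.20 FPKM against 10.6, 9.61 and 8.95 FPKM, and here the groups overlapped. Its log2 fold change was 0.42 (0.16) with TMM and -0.24 with library size alone. For these 4 genes the 3 settings without TMM-like factors (library size alone and both limma fits on FPKM) gave negative values.

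The median log2 fold change of the 5 enzymes was 0.42 with TMM (all genes -0.04) and -0.24 with library size alone (all genes -0.71). In FPKM, 1 of 5 lay above the control range without overlap (background 9.45%) and 3 of 5, Alas2, Alad and Urod, lay below it (background 57.4%). In level, control mice held more Alad (57.9 ± 3.20 FPKM) and Alas2 (40.6 ± 2.55 FPKM) than Alas1 (24.0 ± 3.78 FPKM), and ethanol-exposed mice held more Alas1 than any of the other 4 in every library. Control values of Alas1 and Urod (24.6 ± 0.511 FPKM) lay within their spread, as did Alas2 (30.1 ± 4.81 FPKM) and Alad (35.3 ± 7.19 FPKM) in ethanol-exposed mice.

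The 3 further enzymes of the pathway given here, which were not used to choose the members, had lower FPKM in ethanol-exposed mice, and 3 of 3 fell by the test (background 13.8%). Uros, which closes the ring as uroporphyrinogen III, was at 0.895, 1.39 and 0.881 FPKM in ethanol replicates and at 7.37, 8.53 and 8.06 FPKM in control replicates. It fell by 2.25 on the log2 scale (standard error 0.18, edgeR adjusted p = 0.000222, Benjamini-Hochberg over all genes). The ethanol libraries of Uros were all far below the control libraries, and the call held in all 14 alternatives.

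Cpox, coproporphyrinogen oxidase, was at 4.17, 6.95 and 2.88 FPKM against 16.2, 15.2 and 17.9 FPKM, and it fell by 1.16 on the log2 scale (standard error 0.27, edgeR adjusted p = 0.0123). Ppox, protoporphyrinogen oxidase, was at 2.18, 2.63 and 1.93 FPKM against 7.001, 6.96 and 7.56 FPKM, and it fell by 1.0 (standard error 0.12, edgeR adjusted p = 0.000979). Both sat at the edge of the call. The Cpox call was lost without ethanol replicate 1 (log2 fold change -1.10, edgeR adjusted p = 0.051) and without ethanol replicate 3 (-0.92), and the Ppox call without ethanol replicate 1 (-1.0), ethanol replicate 3 (-0.92) or control replicate 3 (-0.97). In FPKM the 3 genes lay below the control range without overlap, as did 57.4% of genes tested.

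**Figure D2:**
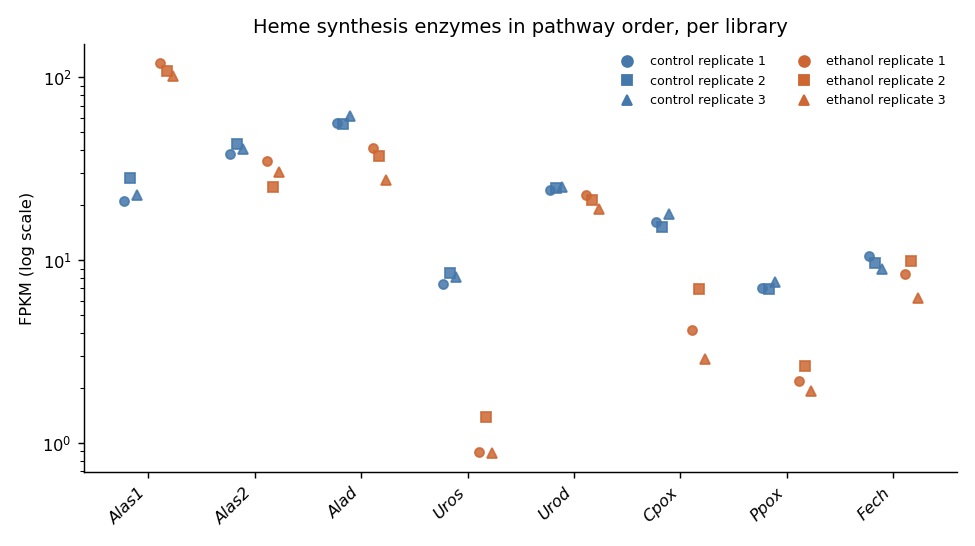
FPKM on a log axis of 8 heme synthesis genes in pathway order, from Alas1 and Alas2 at the first step to Fech at the last; each point is one library, with control mice in blue and acute ethanol-exposed mice in orange. Alas1 lies at 101 to 119 FPKM in ethanol libraries and 21.03 to 28.3 FPKM in control libraries, while Uros lies at 0.881 to 1.39 and 7.37 to 8.53 FPKM.

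Summed over these 8 heme synthesis genes, FPKM was 212 ± 21.8 in ethanol-exposed and 188 ± 6.60 in control mice (SD, n = 3), with overlapping ranges, and the composition of the sum differed more. Alas1 made up 51.0%, 50.8% and 53.4% of the sum in ethanol replicates 1 to 3 and 11.6%, 14.7% and 11.8% in control replicates. The ratio of Alas1 to Alas2 was 3.42, 4.29 and 3.36 in ethanol libraries and 0.553, 0.655 and 0.560 in control libraries, so the 2 isoforms changed places in rank. The ratio of summed hemoglobin to Alas2 was 20.8, 20.7 and 16.6 against 4.27, 4.80 and 4.61. Ratios within a library do not depend on the scaling factors. They are built from genes chosen on this contrast and are given without a test.

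**Figure D3:**
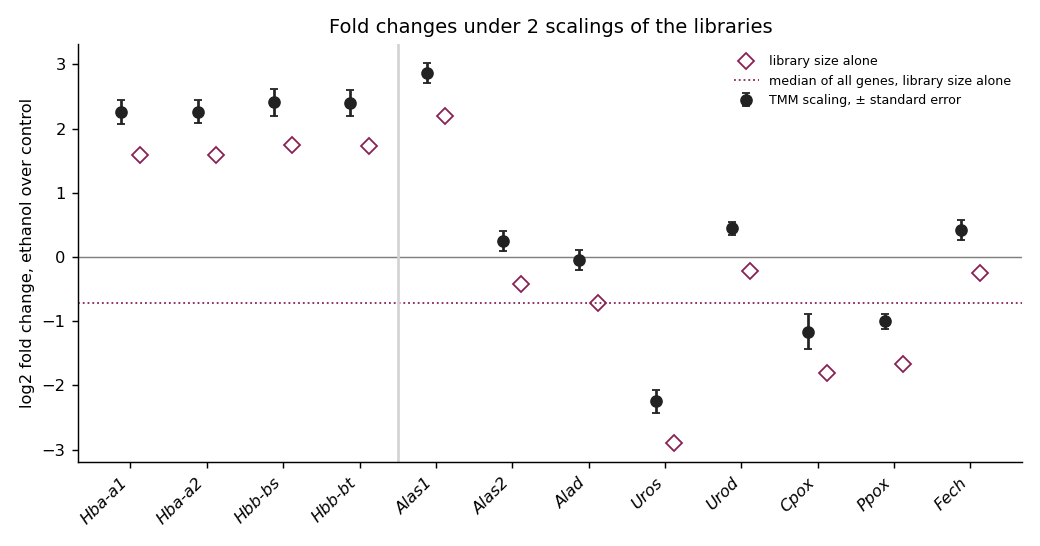
log2 fold change, ethanol over control, of the 4 hemoglobin genes (left of the grey line) and 8 heme synthesis genes, with TMM scaling (filled circles, ± standard error) and with library size alone (open diamonds); the dotted line is the median of all genes with library size alone, at -0.71. The hemoglobin genes and Alas1 lie above 1 on both scales, whereas Alas2, Urod and Fech lie above 0 with TMM and below 0 with library size alone.

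Most genes of other erythroid proteins had few or no counts in either group. Of 15 such genes, 12 were in the table, and 3 passed the filter on low counts. Slc4a1, the band 3 anion exchanger, had 0 counts in every library but control replicate 2 (8 counts), and Ahsp (the alpha hemoglobin stabilizing protein) had 0 counts in all 6. The summed FPKM of the list was 1.47 to 1.87 in ethanol-exposed and 2.84 to 3.02 in control mice, and most of it was Bpgm, the bisphosphoglycerate mutase, at 1.29 to 1.67 and 2.68 to 2.89 FPKM. Lower FPKM without overlap was found for 57.4% of genes tested, and with TMM Bpgm was not called (log2 fold change -0.30, edgeR adjusted p = 0.175).

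Of the 3 erythroid genes tested, 2 were called higher (background 10.4%), both at low counts. Ermap, an erythroblast membrane protein, had 12, 13 and 21 counts in ethanol libraries and 0 in each control library, at least 7.48-fold higher against 3 counts per control library. Sptb, beta spectrin, had 119, 127 and 81 counts against 68, 50 and 95, a log2 fold change of 1.15 (edgeR adjusted p = 0.0278). The Sptb call was lost without ethanol replicate 1 (1.08) or 2 (1.07) or control replicate 1 (1.05) or 2 (1.0). The replicate block also ended it (1.18, edgeR adjusted p = 0.0724). With library size alone Sptb was not called (0.49). The list's median log2 fold change was 1.15, also with Ermap at its bound.

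Of the erythroid transcription factors 0 of 6 tested were called by edgeR (1 at an unadjusted p under 0.05), 0 by DESeq2 and 1 by limma on FPKM (background 10.4% higher and 13.8% lower). Their summed FPKM was 5.62 to 8.45 in ethanol-exposed and 17.6 to 19.998 in control mice, beside 57.4% of genes tested with lower FPKM without overlap. Klf1, the activator of adult beta globin, was at 0.284, 0.712 and 1.65 FPKM in ethanol replicates and at 1.26, 1.56 and 0.991 FPKM in control replicates, with overlapping groups. Zfpm1, the GATA factor partner, had the highest level, 4.48 to 5.37 FPKM against 14.3 to 16.4 FPKM, and a log2 fold change of -0.92 (edgeR adjusted p = 0.00116) that passed the fold threshold with library size alone (-1.59), as did Lmo2 (-1.02). Their part in the hemoglobin values was not tested.

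**Figure D4:**
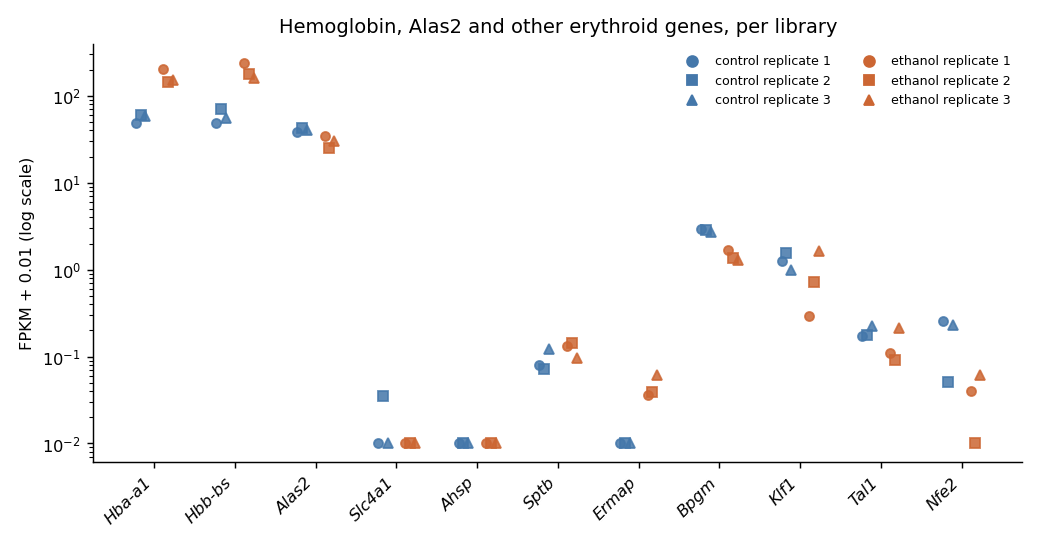
FPKM plus 0.01 on a log axis of Hba-a1, Hbb-bs, Alas2 and 8 other erythroid genes, one point per library, with control mice in blue and acute ethanol-exposed mice in orange; points on the lowest level of 0.01 are libraries at 0 FPKM. The 2 globin genes lie at 48.5 to 239 FPKM, Slc4a1 and Ahsp lie at or near 0, and Bpgm lies at 1.29 to 1.67 FPKM in ethanol and 2.68 to 2.89 FPKM in control libraries.

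Markers of other blood cells moved in different directions. Of the platelet genes 2 of 3 tested rose (background 10.4%), Itga2b (integrin alpha IIb, log2 fold change 2.30, edgeR adjusted p = 0.000394, 440 to 610 counts against 139 to 167) and Ppbp (2.34, edgeR adjusted p = 0.031, 14 to 39 counts against 4 to 11). The Ppbp call was lost without ethanol replicate 1 (log2 fold change 2.24) or 3 (2.0) or any of control replicates 1 to 3 (1.97, 2.49 and 2.62). It was also lost with library size alone (1.66), with no filter (2.31) and with the replicate block (2.31). With limma at a pseudocount of 1 neither Ppbp (0.27) nor Itga2b (0.68) was called. Summed platelet FPKM was 1.88 to 2.50 in ethanol-exposed and 0.626 to 1.02 in control mice. Of the neutrophil genes 3 of 3 tested rose (background 10.4%), S100a8, S100a9 and Retnlg, and their list summed to 2.25 to 13.7 FPKM against 0.581 to 0.769 FPKM. The other 5 genes of the list were not tested, with 0 to 9 counts in ethanol and 0 to 16 in control libraries.

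Ethanol replicate 3 was the highest library for these 3 neutrophil genes, with 339 S100a9 counts beside 48 and 103 in replicates 1 and 2, and without it the log2 fold change of S100a9 was 2.79 in place of 3.98. It was not the highest for hemoglobin, which was highest in replicate 1. The Retnlg call was lost without control replicate 3 (4.11, edgeR adjusted p = 0.0681) and with limma at a pseudocount of 1 (0.81). Of the lymphocyte genes 2 of 6 tested fell (background 13.8%), Cd4 (log2 fold change -1.78, edgeR adjusted p = 0.0078) and Ms4a1 (-3.54, 0 to 4 counts against 20 to 28). The Ms4a1 call was lost without any 1 library other than ethanol replicate 1 (-2.97 to -3.60), with no filter (-3.57) and with the replicate block (-4.08). Without ethanol replicate 1 its log2 fold change was -7.42, where the remaining ethanol libraries had 0 counts. In limma at a pseudocount of 1 Cd4 was not called (-0.41). Kupffer cell genes, such as Clec4f and Cd5l, gave 0 calls of 8 tested with edgeR (3 at an unadjusted p under 0.05), 0 with DESeq2 and 0 or 3 with limma at pseudocounts of 1 and 0.1 (background 10.4% higher and 13.8% lower). Library size alone called 3 lower, Clec4f (-1.04), Vsig4 (-1.07) and Adgre1 (-1.28). The Kupffer list summed to 25.9 to 33.8 FPKM against 53.2 to 56.8 FPKM, where 57.4% of genes tested had lower FPKM without overlap. The part of any of these cells in the hemoglobin values was not tested.

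Among other globin genes, only Cygb, cytoglobin of stellate cells, passed the filter on low counts. It was at 2.37, 2.0 and 1.65 FPKM in ethanol replicates and at 1.72, 2.23 and 2.21 FPKM in control replicates, and was not called (log2 fold change 0.64 with TMM, edgeR adjusted p = 0.0429, and -0.03 with library size alone). Hbq1a and Hbq1b, theta globin genes of the alpha cluster, had at most 3 counts in every library, Mb (myoglobin) had 3 to 8 counts in ethanol and 0 in control libraries, and Ngb (neuroglobin) had 0 to 13 counts. Of 4 genes on chromosome 11 that neighbour the alpha cluster, 1 rose (background 10.4%), Rhbdf1, an inactive rhomboid protease, with 4.15, 4.48 and 2.17 FPKM against 0.990, 1.03 and 0.940 FPKM (log2 fold change 2.52, standard error 0.26, edgeR adjusted p = 0.000522). The other 3, among them Nprl3, whose introns hold the alpha globin enhancers, were not called (Nprl3 log2 fold change -0.02, edgeR adjusted p = 0.917), though Mpg, a DNA glycosylase gene, passed the threshold with library size alone (-1.27).

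Of the genes that break heme down, 2 of 4 rose (background 10.4%), with a list median of 0.94. Hmox1, the inducible heme oxygenase, was at 7.66, 7.66 and 17.6 FPKM in ethanol replicates and at 5.22, 6.00 and 5.29 FPKM in control replicates (log2 fold change 1.68, standard error 0.35, edgeR adjusted p = 0.0083). All ethanol libraries lay above the control libraries, and replicate 3 stood above the other 2. Blvrb, biliverdin reductase B, was at 42.0, 36.9 and 27.9 FPKM against 23.8, 26.7 and 31.1 FPKM (log2 fold change 1.06, standard error 0.17, edgeR adjusted p = 0.00318), with overlapping FPKM. Its call was lost without ethanol replicate 1 (0.90) or control replicate 1 (0.97) and with upper quartile scaling (0.96). Hmox2, the constitutive heme oxygenase, was at 11.4, 11.2 and 19.5 FPKM against 12.8, 12.7 and 12.7 FPKM (log2 fold change 0.82, edgeR adjusted p = 0.0279), and Blvra, biliverdin reductase A, had a log2 fold change of 0.32 with TMM (edgeR adjusted p = 0.167) and -0.35 with library size alone. With library size alone neither Hmox1 (1.0, just under the threshold) nor Blvrb (0.39) was called, and limma on FPKM called 0 of the 4.

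Genes that carry, scavenge or sense heme and hemoglobin included 5 that rose and 1 that fell of 14 (background 10.4% and 13.8%), with a median log2 fold change of 0.44 with TMM and -0.23 with library size alone. Library size alone gave 2 higher and 2 lower calls, and limma on FPKM gave 0 higher and 2 lower at either pseudocount. Hp, haptoglobin, which binds free hemoglobin in plasma, was at 2174, 1841 and 8299 FPKM in ethanol replicates and at 1116, 1283 and 1311 FPKM in control replicates. Ethanol replicate 3 was far above the rest. The log2 fold change of Hp was 2.43 (standard error 0.59, edgeR adjusted p = 0.0149) and 1.36 without that library, and the call was lost without control replicate 1, 2 or 3 (2.35, 2.45 and 2.47). Hpx, hemopexin, which binds free heme, was at 2388, 2216 and 5222 FPKM against 1799.9, 2349 and 2192 FPKM, with overlapping groups (log2 fold change 1.32, edgeR adjusted p = 0.0217). Its call was lost without ethanol replicate 3 (0.78) and without control replicate 1, 2 or 3 (1.21, 1.40 and 1.34).

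Bach1, the heme-sensing repressor of Hmox1, was at 9.64, 9.97 and 4.13 FPKM in ethanol replicates and at 4.42, 3.95 and 3.83 FPKM in control replicates (log2 fold change 1.62, edgeR adjusted p = 0.00511). Here ethanol replicate 3 was the lowest of its group and lay within the control range. Flvcr2, described as a transporter of heme and of choline, was at 0.958, 1.42 and 0.698 FPKM against 0.480, 0.414 and 0.576 FPKM (1.72, edgeR adjusted p = 0.00358). Ambp, the precursor of the heme-binding alpha-1-microglobulin, also rose (1.08, edgeR adjusted p = 0.00452), though not without ethanol replicate 3 (0.86) or with upper quartile scaling (0.98). Pgrmc2, a heme chaperone, fell by 1.05 (edgeR adjusted p = 0.0013), a call lost without ethanol replicate 3 (-0.95) or control replicate 1 (-0.99). With library size alone Hpx (0.63), Ambp (0.40) and Bach1 (0.96) were not called.

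**Figure D5:**
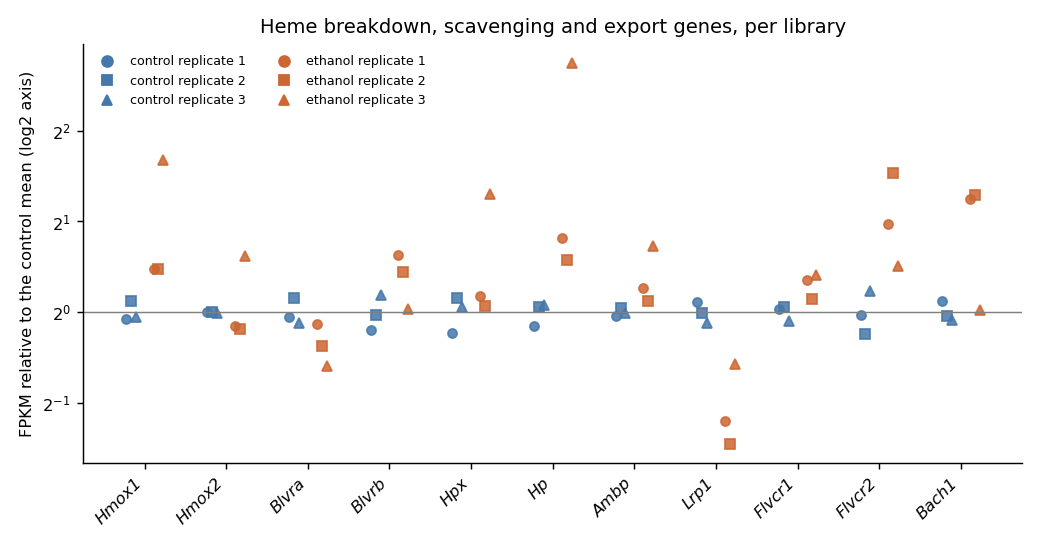
FPKM relative to the control mean, on a log2 axis, of genes for heme breakdown, scavenging, export and sensing, one point per library, with control mice in blue and acute ethanol-exposed mice in orange. Ethanol replicate 3 (orange triangle) is the highest library for Hmox1 (17.6 FPKM), Hmox2 (19.5 FPKM), Hpx (5222 FPKM) and Hp (8299 FPKM) and the lowest ethanol library for Blvrb (27.9 FPKM) and Bach1 (4.13 FPKM).

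Genes that supply heme synthesis with iron, substrates and iron-sulfur clusters held 2 higher and 2 lower calls among 16 (background 10.4% and 13.8%), with a median log2 fold change of 0.31 with TMM and -0.36 with library size alone. The counts were 2 and 5 with library size alone. Slc25a28, mitoferrin-2, was at 13.3, 16.8 and 13.7 FPKM in ethanol replicates and at 4.34, 4.85 and 4.35 FPKM in control replicates, and Glrx5, a glutaredoxin of iron-sulfur cluster assembly, was at 29.7, 31.2 and 23.2 FPKM against 12.9, 13.8 and 13.1 FPKM. Their log2 fold changes were 2.36 (standard error 0.11, edgeR adjusted p = 5.92e-05) and 1.75 (0.12, edgeR adjusted p = 0.000155). Slc25a37, mitoferrin-1, the form of developing red cells, was at 4.12, 4.57 and 3.19 FPKM against 9.43, 8.29 and 8.10 FPKM and was not called (-0.45, edgeR adjusted p = 0.032), though it was called lower with library size alone (-1.12) and with limma at a pseudocount of 0.1 (-1.11). Iba57, an iron-sulfur cluster assembly factor, fell by 1.81 (edgeR adjusted p = 0.00284), and Abcb10, a mitochondrial ATP-binding cassette transporter, by 1.05 (edgeR adjusted p = 0.00101), the latter at the edge of the call (-1.0 without ethanol replicate 1 or control replicate 1).

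Of 11 genes known to act on Alas1 transcription, 3 rose and 1 fell (background 10.4% and 13.8%), with a median log2 fold change of 0.51 with TMM and -0.16 with library size alone. The balance turned with library size alone, which gave 1 higher and 3 lower calls. Foxo1, a fasting-activated factor, was at 6.15, 6.69 and 7.34 FPKM in ethanol replicates and at 3.78, 2.83 and 2.96 FPKM in control replicates (log2 fold change 1.75, standard error 0.15, edgeR adjusted p = 0.000263), a call lost only with limma at a pseudocount of 1 (0.89) among the 14 alternatives. The xenobiotic receptor Nr1i2 (PXR) rose by 1.20 (edgeR adjusted p = 0.00912), with 47.2, 50.1 and 23.2 FPKM against 29.4, 26.1 and 27.6 FPKM, so that ethanol replicate 3 lay below all control libraries. Nr1h4 (FXR) rose by 1.02 (edgeR adjusted p = 0.00698), but not without ethanol replicate 1 (0.80) or control replicate 2 (0.94), and it also stayed under the fold threshold with DESeq2, median ratio scaling, no filter or the replicate block (0.99 in each), upper quartile scaling (0.92) and limma on FPKM (0.31 at either pseudocount). Nr1d1 (REV-ERB alpha), a heme-binding clock repressor, fell by 1.05 (edgeR adjusted p = 0.0279), a call lost without ethanol replicate 3 (-0.74) and without control replicate 1, 2 or 3 (-1.10, -1.02 and -1.05). With library size alone Nr1i2 (0.54) and Nr1h4 (0.35) were not called. Npas2 had the largest change of the list (-2.67, edgeR adjusted p = 0.0848) and was not called. Its FPKM was 0.0520, 0.0235 and 0.764 in ethanol replicates and 3.32, 3.01 and 2.38 in control replicates. Ethanol replicate 3 thus stood far above ethanol replicates 1 and 2. With 1 library left out in turn, the log2 fold change ranged from -5.57 to -2.13 (edgeR adjusted p from 1.72e-05 to 0.181). Npas2 was also called lower with library size alone (-3.37), the replicate block (-4.05) and limma at pseudocounts of 1 (-1.65) and 0.1 (-3.56). Ppargc1a was not called by edgeR (1.34, edgeR adjusted p = 0.0653) and was called higher by DESeq2 (1.32). Its FPKM was 2.53, 2.66 and 0.594 in ethanol replicates and 1.49, 0.941 and 1.15 in control replicates. Ethanol replicate 3 lay below all control libraries, and ethanol replicates 1 and 2 lay above them. With 1 library left out in turn, its log2 fold change ranged from 1.07 to 1.78 (edgeR adjusted p from 0.000158 to 0.186).

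Of 16 liver genes for heme-containing proteins, 5 rose and 1 fell (background 10.4% and 13.8%), with a median log2 fold change of 0.43 with TMM and -0.24 with library size alone. This balance depended on the scaling, since library size alone gave 0 higher and 3 lower calls, as did limma on FPKM at either pseudocount, with Cat (catalase, -1.32 with library size alone) and Suox (sulfite oxidase, -1.19) called lower beside Cyb5b. Tdo2, tryptophan dioxygenase, was at 608, 556 and 669 FPKM in ethanol replicates and at 319, 332 and 306 FPKM in control replicates (log2 fold change 1.61, edgeR adjusted p = 0.000249). Cyp2e1, the ethanol-oxidizing cytochrome P450, was at 3549, 3819 and 2900.1 FPKM against 1919.9, 1982 and 2054 FPKM (1.45, edgeR adjusted p = 0.000296). Cyp4a10, a fatty acid hydroxylase, rose by 1.34 (edgeR adjusted p = 0.00833), and the lowest ethanol library, at 174 FPKM, lay just above the highest control library, at 171 FPKM. Cyb5b, the mitochondrial outer membrane cytochrome b5, fell by 1.93 (edgeR adjusted p = 0.000328), from 131, 121 and 117 FPKM in control replicates to 20.2, 25.8 and 15.2 FPKM. With library size alone Tdo2 (0.94), Cyp2e1 (0.79) and Cyp4a10 (0.68) stayed under the fold threshold and Cyb5b remained called.

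The genes whose FPKM profiles over the 6 libraries lay nearest to summed hemoglobin, by root mean square distance on centred log2(FPKM + 1) among 9604 genes, were Slc25a29 (0.158), Gm6493 (0.164), Ell (0.177), Rab20 (0.192) and Gm54668 (0.20). Ell, an RNA polymerase II elongation factor, had mean FPKM of 27.6 in ethanol-exposed and 7.96 in control mice, and Slc25a29, a mitochondrial carrier, 4.19 and 0.568. Nearest to Alas1 among 9607 genes were Gm15567 (0.117), Bcl2l1 (0.119), Gm7334 (0.126), Gja4 (0.144) and Pla2g12a (0.174). Bcl2l1, which encodes the apoptosis inhibitor Bcl-xL, had mean FPKM of 32.8 and 6.59. The added 1 shrinks changes at low FPKM, so a near profile need not have a like FPKM ratio. Gm54668, for example, had mean FPKM of 3.43 in ethanol-exposed and 0.208 in control mice, and Gm15567 3.71 and 0.0716. No hemoglobin gene was among the 5 nearest to Alas1, and no heme synthesis gene was among the 5 nearest to hemoglobin.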

How the data were processed

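Liver RNA was extracted with TRIzol and sequenced as paired 150-base reads. The authors deposited, per Ensembl gene and library, a whole-number count of reads, not normalized, and an FPKM value scaled to transcript length and library size. The submitters' processing notes name GRCm38 (mm10), but only 539 of 27049 genes shared with the GRCm38 annotation used here have the same start and end, so the table's coordinates are printed as deposited. Aligner, counter and use of strand are not given in the sources used here, and overlapping genes are therefore uncertain. A further 1 count column matched no library and was not used.

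Counts were analysed in R 4.3.3 with edgeR 4.0.16 (filterByExpr, TMM scaling, quasi-likelihood test, two-sided, Benjamini-Hochberg adjustment over 16717 genes, no covariates). Calls needed an adjusted p below 0.05 with a log2 fold change past 1 in size. Alternatives used DESeq2 1.42.0, limma 3.58.1 on log2(FPKM + 1) or log2(FPKM + 0.1), other scalings, no filter, the replicate number as a block, and each library left out in turn. Upper quartile scaling and summing of near-identical copies were added after seeing the data. The square root of the common dispersion was 0.299, with 60514417 to 74210869 counts per library. How far depth and the 3 mice per group each limit precision was not compared. Where no library of a group exceeded 3 counts, the gene was read as undetected in that group. Libraries of a group differed by more than counting noise (chi-square per degree of freedom 53.9 to 545), and none was treated as a duplicate. The labels name each library's mouse but not litters or cages, so p-values measure the spread between these libraries. The scripts were tested on simulated counts.

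The 9 genes, the gene lists and the alternatives were chosen with earlier results of these data known. Besides the 9 genes, the text names all detected genes of the lists of other heme synthesis enzymes, other globins and heme breakdown. From every other list it names called genes, at most the 4 with the largest change, and in marker lists also some of the most abundant. It also names the 5 genes nearest to summed hemoglobin and to Alas1 (mean FPKM of at least 1). Some genes of these lists are not reported here and entered no list count or sum, and 2 genes listed as neighbours of alpha globin lie on chromosome 17 and were left out. Single genes outside this rule (Ambp, Pgrmc2, Clec4g, Slc4a1, Ahsp, Nprl3, Mpg, Slc25a37, Npas2, Ppargc1a, Klf1, Lmo2, Vsig4, Adgre1, Cat and Suox) were named after their values were seen. Promoter sequences came from RefSeq (GRCm38.p6) and were searched with Python 3.11.15, pandas 2.3.3 and Biopython 1.88.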

Additional observations from a re-analysis of the deposited data

How the results depend on the processing

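Under library size alone, 846 of 16717 genes tested were called higher and 5385 lower, against 1738 and 2301 with TMM. Limma on FPKM also changes the test and the genes tested (16007). With it 408 were higher and 1713 lower at a pseudocount of 1, and 752 higher and 4965 lower at 0.1. The pathway lists held 65 genes tested with TMM. Their 17 higher calls became 5 with library size alone, 2 with limma at a pseudocount of 1 and 3 at 0.1. Their 8 lower calls became 16, 13 and 14 in the same order. Over the cell marker lists (45 genes tested with TMM), 9 higher calls became 6, 3 and 6. There 4 lower calls became 10 with library size alone and 8 with limma at 0.1. The hemoglobin median log2 fold change of 2.33 became 1.66, 1.61 and 1.63, that of the 5 heme synthesis enzymes 0.42 became -0.24, -0.24 and -0.27, and the log2 ratio of hemoglobin shares of 1.66 became 2.33 over TMM-normalized library sizes. Leaving out each library in turn gave 1490 to 1920 higher and 1713 to 2902 lower genes, 14 to 18 higher and 5 to 8 lower calls in the pathway lists, 7 to 8 higher and 3 to 4 lower calls in the marker lists, 1 to 3 of the 3 other heme enzymes lower (3 under library size alone and both limma fits), a hemoglobin median of 2.11 to 2.44, an enzyme median of 0.36 to 0.50 and a log2 ratio of shares of 1.47 to 1.75. The 5 lower pathway calls arose without ethanol replicate 1, ethanol replicate 3 or control replicate 1, and the single lower heme enzyme without ethanol replicate 1 or 3. The hemoglobin genes and Alas1 kept their sign in all 14 alternatives, whereas Alas2, Urod and Fech changed sign in 3 and Alad in 2. No call among the list genes was reversed. Same-numbered mice had nearly uncorrelated deviations from their group means (-0.044, -0.034 and -0.007). With 3 mice per group this cannot settle whether the replicate numbers pair the mice, and the labels name no pairing. The replicate block gave 1518 higher and 2000 lower genes and hemoglobin log2 fold changes of 2.24 to 2.40. Upper quartile scaling, added after seeing the data, gave 1506 and 2614. The cause of these differences was not tested. Genes with few counts, such as Ermap and Ppbp, carry more counting error for their level than abundant genes.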

Other observations

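Among sinusoidal endothelial genes, which belong to no comparison of the report, 1 of 7 rose and 2 fell (background 10.4% and 13.8% of all genes tested). Lyve1, the hyaluronan receptor, was at 6.01, 8.89 and 17.01 FPKM in ethanol replicates 1 to 3 and at 1.37, 1.48 and 1.40 FPKM in control replicates (log2 fold change 3.59, standard error 0.39, edgeR adjusted p = 0.000692, higher in 3 of 3 libraries). Kdr, the VEGF receptor, fell by 1.57 (standard error 0.30, edgeR adjusted p = 0.00598), and Fcgr2b, an Fc receptor, by 1.12 (standard error 0.16, edgeR adjusted p = 0.00168), though Fcgr2b did not pass the fold threshold without ethanol replicate 3 (-0.99). Clec4g, a C-type lectin, lay at the edge of the call (log2 fold change -0.998) and was called lower with DESeq2 (-1.03) and with library size alone (-1.66), among other settings.

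Of 9 hepatocyte genes, Apoa1 (log2 fold change 1.24, edgeR adjusted p = 0.000549) rose and none fell by the test (1 of 9, beside a background of 10.4%), and with library size alone Apoa1 was not called (0.57).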
